A study of Triticum aestivum with 18 samples.

Results

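The 5 accessions that the study placed in hormone metabolism are described here across all groups of the series. BE604829 carries the class lipoxygenase of jasmonate synthesis and degradation, CD373926 the class 12-oxo-phytodienoate (12-oxo-PDA) reductase, CA695230 gibberellin synthesis and degradation, CA652678 ethylene synthesis and degradation, and BJ293360 hormone metabolism with no further class. They are measured by 6 of the 61179 wheat probe sets of the array, since CD373926 has 2, and all 6 passed the filter on low signals, as did 57992 probe sets in all. The accessions were selected on measured values of the same arrays: the study listed them for their ABA and H2O2 responses against CK, in embryo (BE604829 and CA652678), in endosperm (CD373926 and CA695230) or in both (BJ293360). Those responses are given below as values with no test, and so are the differences between embryo and endosperm, since each of them shares arrays with a response that chose the accession. Tests are given for the treatment contrasts of the other tissue.

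Seeds of an elite Chinese bread wheat cultivar imbibed pure water (CK), 100 mg/L ABA or 100 μmol H2O2, and at 16 h embryo and endosperm were separated by hand. This gave 6 groups, CK_embryo, ABA_embryo, H2O2_embryo and their 3 endosperm counterparts, with 3 arrays each from separately treated material. No group carried a transgene or mutation. RNA was hybridised to Affymetrix Wheat Genome Arrays, where short probes grouped into probe sets report on transcripts, 1 signal for each. A probe set name ending in x_at or s_at marks probes that can also bind related transcripts.

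Jasmonates are made from membrane fatty acids. Lipoxygenases add oxygen to the fatty acid in the plastid, and 12-oxo-PDA reductase in the peroxisome acts later on the path to jasmonic acid. Gibberellins promote germination and, in cereal grains, are released by the embryo and switch on reserve breakdown in the aleurone, the living outer layer of the endosperm; ABA opposes both. Ethylene is made from methionine through ACC (aminocyclopropane carboxylic acid) by ACC synthase and ACC oxidase and counteracts ABA in germinating seeds of many species.

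Signals are linear MAS5 values that reflect brightness and not molecules, so levels were compared between groups for 1 probe set and never between probe sets. Differences are log2 differences of group means after signals under 10 were raised to 10. Adjusted p-values are those of limma, fitted over the 57992 probe sets, after Benjamini-Hochberg correction, with 0.05 as the threshold. Arrays of 2 groups that do not overlap were common. Between treatments within a tissue this held, in either direction, for 18.2% to 28.6% of all probe sets. Between the tissues it held for 38.5% in CK, 36.1% with ABA and 31.4% with H2O2. In whole tissue, fewer cells of a type and less RNA per cell cannot be told apart. On 17 arrays the median signal was 59.0 to 81.0 and 17.5% to 20.8% of probe sets lay under 10. On H2O2_embryo replicate 1 the median was 137.9 and 6.79% lay under 10, so results that use this array are given without it where it matters. All arrays share 1 estimate of the spread in limma, so the adjusted p-values of the other contrasts depend on this array too. For ABA minus CK in endosperm, 6.87% of all probe sets passed with it and 15.6% without it. The tissue labels were checked on storage protein and lectin probe sets. Wheat germ agglutinin, an embryo lectin, gave 1485 to 1686 in CK_embryo and 272.6 to 412.8 in CK_endosperm. With H2O2 it gave 2094 to 2256 in embryo and 185.6 to 269.4 in endosperm. With ABA it gave 16270 to 19090 and 4162 to 4273, so ABA_endosperm lay above CK_embryo. This single embryo marker thus separated the tissues only within a treatment. Of 19 gliadin, glutenin and avenin-like probe sets 18 were tested, and endosperm was higher for 5 in CK, 7 with ABA and 5 with H2O2, and embryo for none (18.2%, 16.1% and 22.7% of all probe sets differed between the tissues in either direction). A gamma-gliadin probe set read 1.78 to 5.83 in CK_embryo and 77.7 to 150.2 in CK_endosperm, whereas an avenin-like probe set read 5070 to 5302 and 3635 to 4278, so storage protein signal was present on the embryo arrays too.

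**Figure D1:**
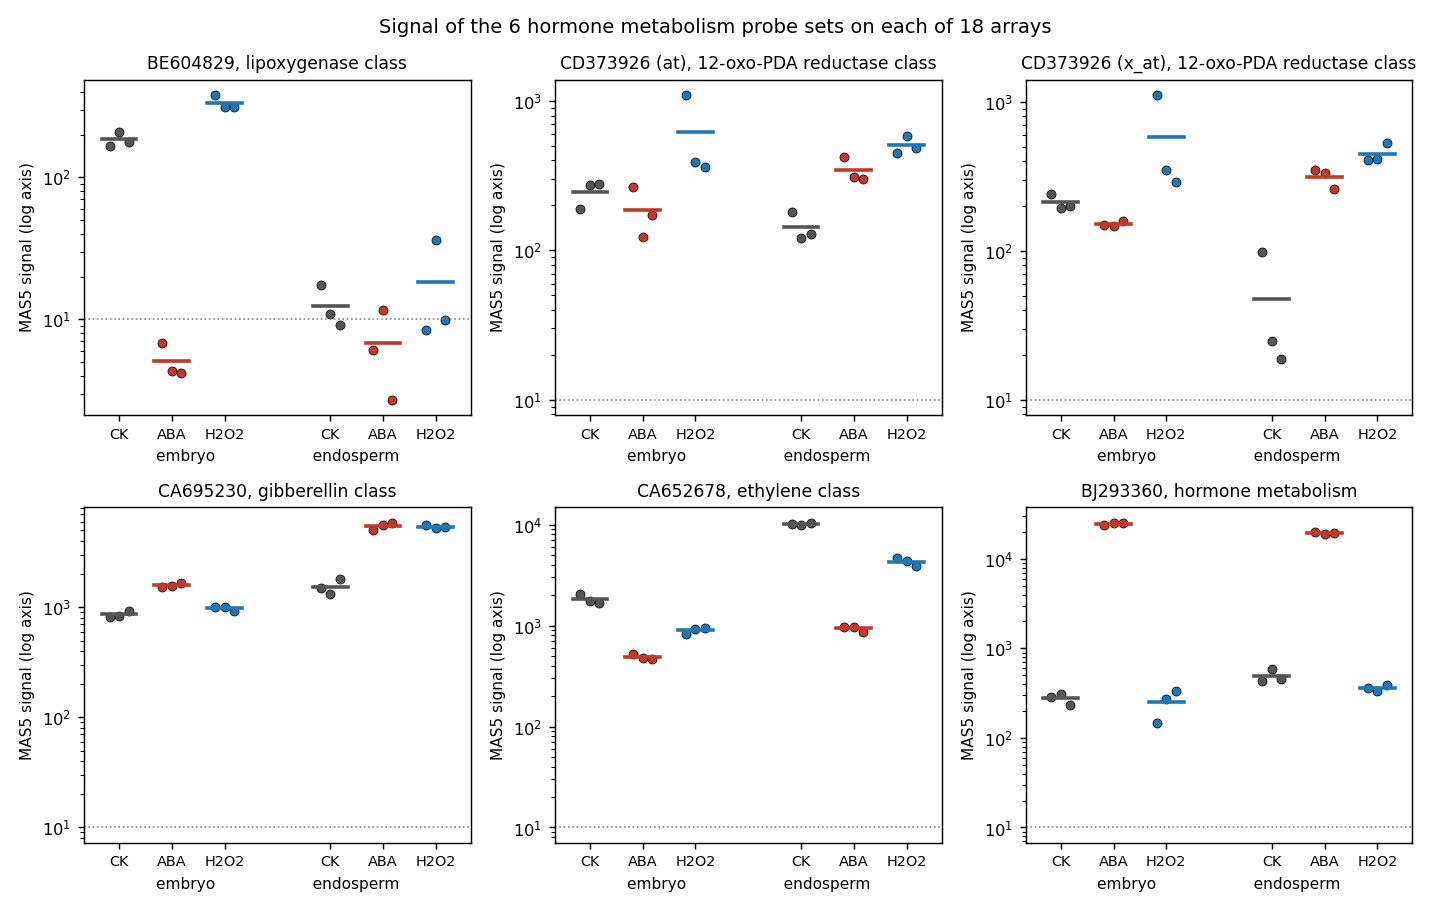
MAS5 signal (log axis) of each of the 6 probe sets on each array, 3 points per group with the group mean as a bar and the floor of 10 as a dotted line. BE604829 stood clearly above the floor only in CK_embryo (167.5 to 210.2) and H2O2_embryo (312.1 to 380.1), and BJ293360 reached 19080 to 25400 under ABA in both tissues against 147.6 to 596.4 in the other groups.

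The lipoxygenase accession BE604829 had signal clearly above the floor only in embryo, where it was under the floor of 10 with ABA. Its single probe set ends in x_at, so related transcripts may contribute to the signal. Its signal was 167.5, 210.2 and 177.9 on the CK_embryo arrays, 6.85, 4.32 and 4.20 on the ABA_embryo arrays and 380.1, 312.8 and 312.1 on the H2O2_embryo arrays. All 3 ABA_embryo arrays lay under the floor, and the H2O2_embryo arrays lay above every CK_embryo array. In endosperm the signal was 17.5, 10.8 and 9.16 in CK, 6.06, 11.6 and 2.72 under ABA and 8.46, 36.5 and 9.92 under H2O2, so the 3 endosperm groups overlapped around the floor.

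For BE604829 in embryo, the contrasts that chose it, ABA minus CK was −4.20 ± 0.59 (SE), and H2O2 minus CK was 0.86 ± 0.59, or 1.81-fold higher. The ABA value rests on the floor: it became −5.21 with a floor of 1, −2.53 with a floor of 32 and −0.74 with a floor and filter of 110. For this accession the study reports a much smaller decrease with ABA than the main value here. In endosperm, which the choice did not use, neither ABA (−0.24, 95% interval −1.47 to 0.99, adjusted p = 0.893) nor H2O2 (0.32, −0.91 to 1.54, adjusted p = 0.856) passed the test. The signs of both endosperm values turned when a single array was left out (0.012 for ABA without CK_endosperm replicate 1, −0.31 for H2O2 without H2O2_endosperm replicate 2). Between the tissues, embryo minus endosperm was 3.90 ± 0.59 (SE) in CK and 4.44 ± 0.59 under H2O2, with all embryo arrays above all endosperm arrays in both, and −0.07 ± 0.59 under ABA, where both tissues lay around the floor. The first and second of these rest on the floor as well, since it set 1 CK and 2 H2O2 values of endosperm: they became 2.53 and 3.32 with a floor of 32. BE604829 passed the filter on low signals only through its CK_embryo and H2O2_embryo arrays.

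The 12-oxo-PDA reductase accession CD373926 was higher in endosperm under both treatments, and in embryo it was higher under H2O2 than under ABA. The probe set ending in at read 180.3, 120.9 and 128.7 in CK_endosperm, 424.5, 307.9 and 302.0 in ABA_endosperm and 446.7, 587.3 and 485.9 in H2O2_endosperm. The probe set ending in x_at read 98.5, 24.7 and 18.7 in CK_endosperm, 350.2, 332.4 and 261.7 in ABA_endosperm and 409.4, 412.4 and 527.1 in H2O2_endosperm. For both probe sets every H2O2_endosperm array lay above every ABA_endosperm array, and these above every CK_endosperm array.

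Over these endosperm groups, whose differences chose the accession, the at probe set was 2.42-fold higher with ABA (log2 1.27 ± 0.35 SE) and 3.57-fold higher with H2O2 (1.84 ± 0.35). The x_at probe set gave 8.75-fold (3.13 ± 0.49) and 12.5-fold (3.65 ± 0.49). The probe sets thus agreed in direction and differed in size, with the CK_endosperm arrays of the x_at probe set near the floor. With a floor and filter of 110 its values were 1.51 and 2.02.

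In embryo, the at probe set of CD373926 read 189.6, 273.5 and 276.8 in CK, 264.1, 122.2 and 171.5 under ABA and 1098, 391.3 and 361.2 under H2O2. The x_at probe set read 242.5, 193.7 and 199.8 in CK, 149.2, 146.2 and 159.5 under ABA and 1116, 350.6 and 288.4 under H2O2. The highest H2O2_embryo value of each is that of replicate 1, the array with the raised median, and the other 2 arrays still lay above all CK_embryo arrays. H2O2 minus CK in embryo was 1.14 (95% interval 0.41 to 1.88, adjusted p = 0.175) for the at and 1.20 (0.18 to 2.22, adjusted p = 0.288) for the x_at probe set, and without replicate 1 it was 0.63 (adjusted p = 0.484) and 0.59 (adjusted p = 0.836). ABA minus CK was −0.46 (adjusted p = 0.76) and −0.48 (adjusted p = 0.876). Neither treatment passed the test against CK in embryo.

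Between the treatments in embryo, CD373926 was lower under ABA than under H2O2 by 1.60 on the log2 scale for the at probe set (ABA minus H2O2 −1.60, adjusted p = 0.00438) and by 1.67 for the x_at probe set (ABA minus H2O2 −1.67, adjusted p = 0.0314). Without H2O2_embryo replicate 1 the difference was −1.09 (adjusted p = 0.00914) and −1.07 (adjusted p = 0.129). The call for the x_at probe set was also lost without any 1 of the 3 ABA_embryo arrays (adjusted p = 0.0785 to 0.0918). When the 6 arrays were fitted alone, neither probe set passed (adjusted p = 0.189 and 0.175). Neither passed by SAM, a permutation test named in the study's methods and coded anew here (q = 0.232 and 0.22).

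As values, embryo minus endosperm of CD373926 in CK was 2.56 ± 0.49 (SE) for the x_at and 0.79 ± 0.35 for the at probe set. Under ABA the differences were −1.04 ± 0.49 and −0.94 ± 0.35. Under H2O2 they were 0.11 ± 0.49 and 0.095 ± 0.35, and without H2O2_embryo replicate 1 they were −0.49 and −0.42.

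The cluster holds 3 further probe sets beside those of CD373926 (UniGene), all made for accession CA650490. These 3 are also in the study's supplementary list of changed probe sets, so they are not independent evidence. Their signals rose in endosperm with both treatments: with H2O2 by 2.15, 1.77 and 1.86 (adjusted p = 1.01e-04, 7.07e-05 and 1.17e-08 for the at, s_at and x_at probe sets) and with ABA by 1.55, 0.92 and 1.14 (adjusted p = 0.00157, 0.0173 and 1.48e-06). The signal of the x_at probe set was 2365, 2321 and 2552 in CK_endosperm, 5673, 5070 and 5256 under ABA and 7935, 9304 and 9113 under H2O2, with no overlap among the 3 groups. In embryo with H2O2, the at and x_at probe sets rose by 1.42 (adjusted p = 0.0288) and 0.79 (adjusted p = 0.00188), and the s_at probe set gave 0.21 (adjusted p = 0.724). Without H2O2_embryo replicate 1, an alternative added after seeing the data, the 3 values were 0.83, 0.66 and 0.66 (at, x_at and s_at), and all passed (adjusted p = 9.08e-05, 6.95e-05 and 1.06e-04). On H2O2_embryo replicate 1 the at probe set read 15520 against 4826 and 4414 on the other arrays of the group, and the s_at probe set 4134 against 10640 and 10420, so this array deviated in opposite directions within 1 cluster. With ABA in embryo the values were −0.30, −0.22 and −0.34 with adjusted p = 0.861, 0.88 and 0.123.

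**Figure D2:**
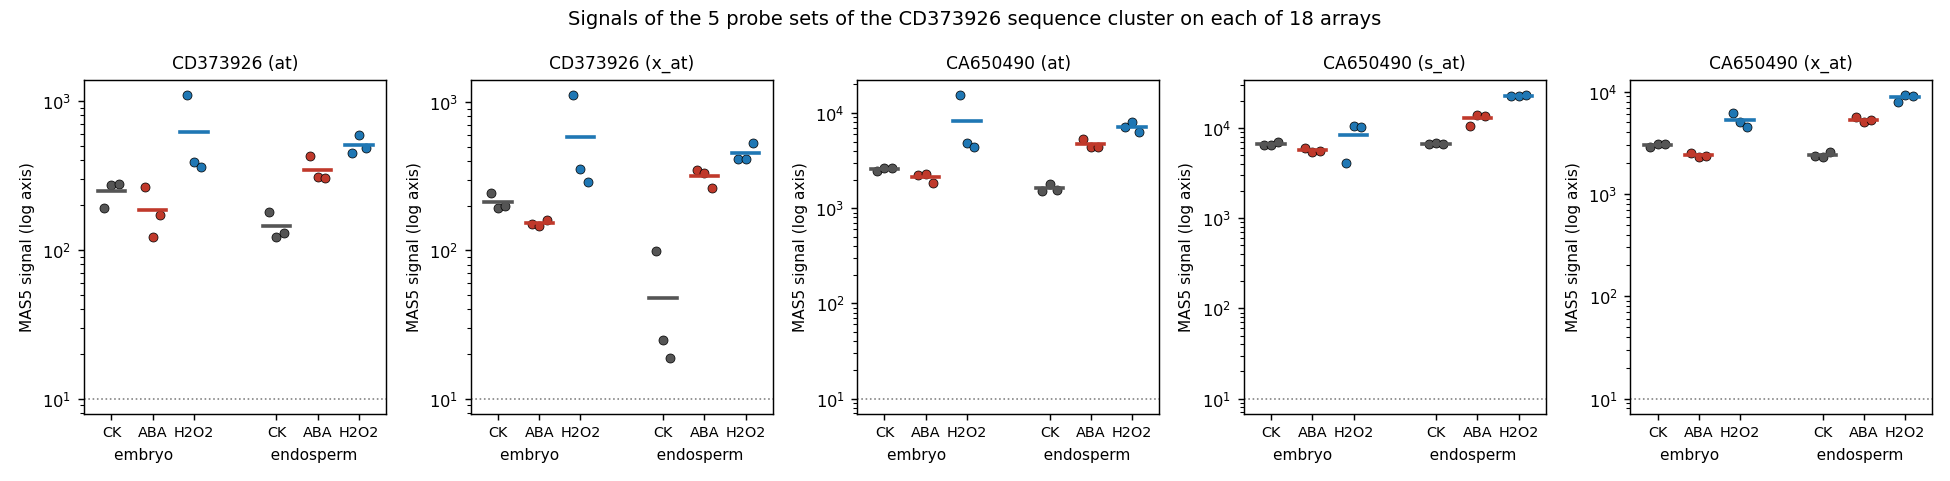
MAS5 signal (log axis) of the 2 probe sets of CD373926 and the 3 of CA650490 on each array, with group means as bars and the floor of 10 as a dotted line. In endosperm every H2O2 array lay above every CK array for all 5 probe sets, and H2O2_embryo replicate 1, the leftmost H2O2_embryo point, stood apart from replicates 2 and 3.

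The gibberellin accession CA695230 had all endosperm arrays above all embryo arrays in each treatment, and its signal rose with ABA in embryo too, by limma. All endosperm arrays lay above all embryo arrays for 17.4% of all probe sets in CK, 15.1% with ABA and 13.2% with H2O2. In endosperm CA695230 read 1506, 1312 and 1819 in CK, 5041, 5643 and 5889 under ABA and 5586, 5293 and 5396 under H2O2. Both treated groups lay above all CK_endosperm arrays and overlapped each other. These endosperm contrasts chose the accession: ABA minus CK was 1.85 ± 0.12 (SE), 3.60-fold, and H2O2 minus CK was 1.82 ± 0.12, 3.54-fold, with ABA minus H2O2 at 0.02 ± 0.12.

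In embryo CA695230 read 821.7, 832.9 and 931.9 in CK, 1541, 1566 and 1650 under ABA and 1000, 1010 and 927.8 under H2O2. The ABA_embryo arrays lay above all others of the tissue, while CK_embryo and H2O2_embryo overlapped. ABA raised it 1.84-fold (0.88, 95% interval 0.63 to 1.13, adjusted p = 3.7e-05), and it exceeded H2O2 by 0.70 (adjusted p = 4.32e-04). Both passed without H2O2_embryo replicate 1 (0.88 and 0.71), and SAM called neither (q = 0.109 and 0.331). H2O2 minus CK was 0.18 (−0.07 to 0.44, adjusted p = 0.506). The difference of the H2O2 effects, embryo minus endosperm, was −1.64 ± 0.17 (SE), and that of the ABA effects −0.97 ± 0.17; both contain the contrast that chose the accession and have no test. Embryo minus endosperm was −0.83 ± 0.12 in CK, −1.80 ± 0.12 under ABA and −2.47 ± 0.12 under H2O2.

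The accession's annotation names no enzyme of the gibberellin path. For comparison, 4 probe sets of gibberellin 20-oxidase, which makes the precursors of active gibberellins, were added after the other lists had been set, through RefSeq synonyms: 2 for AB005555 on chromosome 5D, 1 for Y14008 on 5B and 1 for Y14009 on 4A. Of these 4, only 1 passed in any treatment against CK, a probe set of AB005555 that was 395.8, 426.1 and 530.4 in CK_embryo and 791.7, 735.6 and 594.0 in ABA_embryo (0.65, adjusted p = 0.0472). The second probe set of AB005555 gave 0.46 (adjusted p = 0.297). Under ABA, embryo exceeded endosperm for 3 of the 4, by 0.80 and 0.82 for AB005555 (adjusted p = 0.00454 and 0.00702) and 1.24 for Y14008 (adjusted p = 0.00282), against 16.1% of all probe sets in either direction. Another probe set of the sequence stem of CA695230 had signals of 22.6 to 254.1 and passed in no treatment contrast against CK (adjusted p = 0.336 to 0.939).

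The ethylene accession CA652678 was lower with both treatments in both tissues, and lower with ABA than with H2O2. In endosperm, which its choice did not use, it read 10200, 9918 and 10470 in CK, 974.1, 972.6 and 870.3 under ABA and 4641, 4410 and 3881 under H2O2. The 3 endosperm groups were separate, in the order CK, H2O2, ABA. ABA lowered it 10.9-fold (−3.44, 95% interval −3.69 to −3.20, adjusted p = 1.93e-13) and H2O2 2.37-fold (−1.25, −1.489 to −1.003, adjusted p = 1.48e-06), and ABA minus H2O2 was −2.20 (adjusted p = 1.15e-10). SAM called the ABA effect and neither of the others (q = 0.293 for H2O2 and 0.0953 for ABA minus H2O2). For H2O2 minus CK in endosperm SAM called only 1 of the 57992 probe sets. The ABA-minus-CK difference of CA652678 in endosperm was the 19th lowest of 57992.

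In embryo CA652678 read 2055, 1761 and 1659 in CK, 528.3, 474.1 and 467.8 under ABA and 833.6, 923.1 and 936.8 under H2O2, again with no overlap and in the same order. These contrasts chose it and are given as values, −1.89 ± 0.12 (SE) or 3.71-fold lower for ABA and −1.02 ± 0.12 or 2.03-fold lower for H2O2. Embryo minus endosperm was −2.49 ± 0.12 in CK, −0.94 ± 0.12 under ABA and −2.26 ± 0.12 under H2O2, with all embryo arrays below all endosperm arrays in each. The ABA effect was larger in endosperm, with a difference between the tissues of 1.55 ± 0.16, which has no test because the embryo effect is part of it. Its sequence stem holds 3 further probe sets. A first, not in the study's list of changed probe sets, read 113.6, 127.0 and 122.2 in CK_embryo and 6.13, 11.1 and 3.90 in ABA_embryo, and fell with ABA in embryo (−3.55, adjusted p = 0.00401, a value that rests on the floor). With H2O2 in embryo it read 285.3, 127.0 and 111.9 and was not lower than CK (0.40, adjusted p = 0.851, and −0.02 without H2O2_embryo replicate 1). In endosperm it gave −2.09 with ABA (adjusted p = 0.109) and −1.46 with H2O2 (adjusted p = 0.329). The other 2, with signals of at most 114.9, passed in neither treatment contrast against CK in either tissue.

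BJ293360 was the strongest responder to ABA of the 5 accessions in both tissues. In embryo it read 288.9, 306.4 and 234.6 in CK, 24180, 24960 and 25400 under ABA and 147.6, 270.2 and 336.5 under H2O2. In endosperm it read 431.3, 596.4 and 455.2 in CK, 20030, 19080 and 19390 under ABA and 363.9, 330.8 and 386.6 under H2O2. The ABA arrays lay far above the rest in both tissues, H2O2_embryo overlapped CK_embryo, and the H2O2_endosperm arrays lay below all CK_endosperm arrays. All treatment contrasts of BJ293360 served to choose it. As values, ABA minus CK was 6.50 ± 0.21 (SE), 90.4-fold, in embryo and 5.32 ± 0.21, 39.9-fold, in endosperm, and H2O2 minus CK was −0.21 ± 0.21 and −0.44 ± 0.21. Without H2O2_embryo replicate 1 the H2O2 value of BJ293360 in embryo was 0.13. Its ABA difference ranked second of 57992 in each tissue.

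Between the tissues, embryo minus endosperm of BJ293360 was −0.83 ± 0.21 (SE) in CK, 0.35 ± 0.21 under ABA, where every ABA_embryo array lay above every ABA_endosperm array, and −0.60 ± 0.21 under H2O2. The last of these was −0.25 without H2O2_embryo replicate 1.

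**Figure D3:**
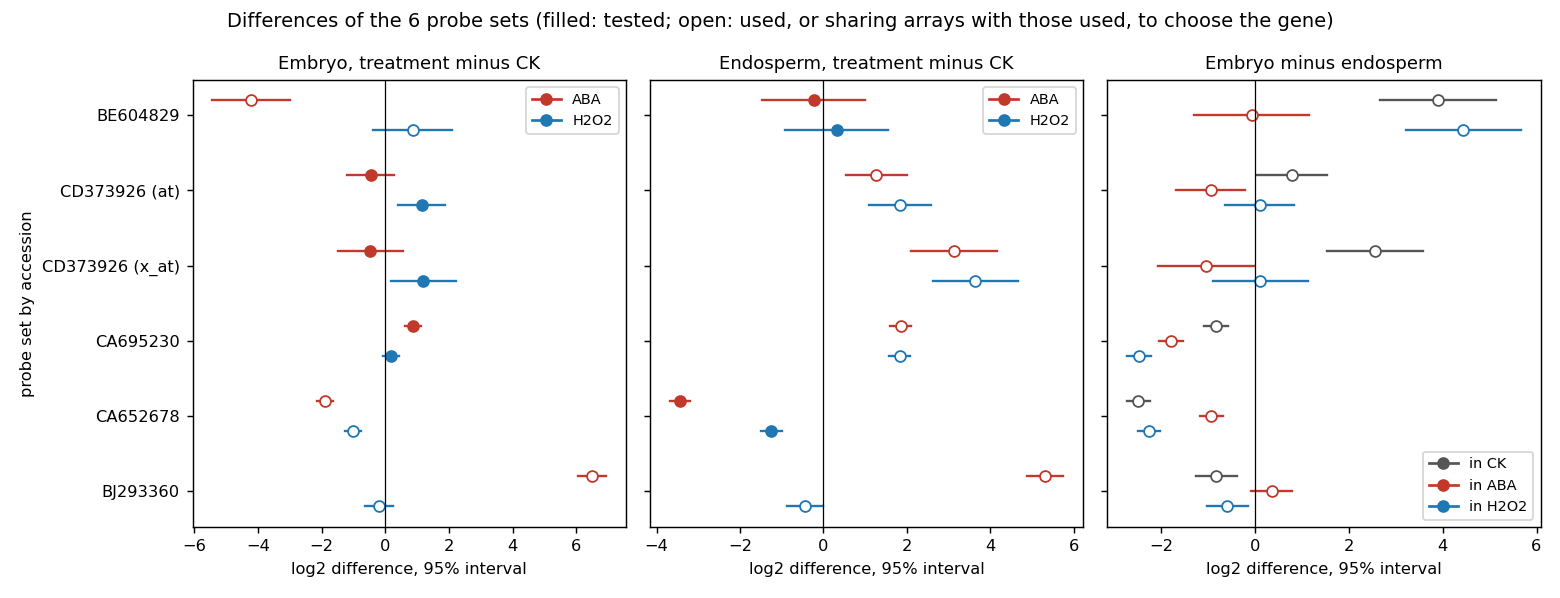
Log2 differences (points) with 95% intervals (lines) of the 6 probe sets for ABA and H2O2 against CK in embryo and in endosperm, and for embryo against endosperm in each treatment; filled circles are tested, and open circles are contrasts that chose the accession or share arrays with those that did. CA652678 lies below 0 in all 4 treatment contrasts, CA695230 lies below 0 in all 3 tissue contrasts, and BE604829 lies above 0 between tissues in CK (3.90) and H2O2 (4.44) and at −0.07 under ABA.

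Across the treatment contrasts that share no array with the choice, the tested probe sets divided as follows. In embryo, ABA passed for 1 of 3 (CA695230) in limma, where 5.74% of all 57992 probe sets passed. H2O2 passed there for 0 of 3, where 0.531% passed, with 2 at an unadjusted p below 0.05, both of CD373926. ABA against H2O2 in embryo passed for 3 of 3, the 2 of CD373926 and CA695230, where 10.5% passed. The SAM test at a q of 0.05 called 0 of 3 in each of these embryo contrasts. Of all 57992 probe sets it called 933 for ABA, 0 for H2O2 and 683 for ABA against H2O2. Its result for H2O2 in embryo therefore says nothing about these probe sets in particular. In endosperm, ABA, H2O2 and ABA against H2O2 each passed for 1 of 2, CA652678 in each case, where 6.87%, 5.46% and 3.44% passed. SAM called 1 of 2, 0 of 2 and 0 of 2, and 107, 1 and 81 of all probe sets. With its own SAM run the study reports far more changed genes for ABA in each tissue than the version coded here called. In limma without H2O2_embryo replicate 1, 12%, 1.36% and 13.1% of all probe sets passed in these embryo contrasts. In endosperm 15.6%, 13.8% and 9.67% passed. Only the x_at call of CD373926 for ABA against H2O2 was then lost (adjusted p = 0.129).

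The 5 accessions did not follow a single pattern over the 18 arrays. Over the log2 signals, the 2 probe sets of CD373926 had a Pearson correlation of 0.861. Those between accessions ranged from −0.676 (BE604829 with CA695230) to 0.391 (BE604829 with the at probe set of CD373926 and, equally, BJ293360 with CA695230). Without H2O2_embryo replicate 1 the highest was 0.509 (the at probe set of CD373926 with CA695230, 0.282 with all arrays), and BE604829 with the at probe set of CD373926 gave 0.215. These correlations describe 6 groups of 3 arrays and mix tissue with treatment. The probe set most like each one, by the same measure over all wheat probe sets tested, was as follows. BJ292018 came closest to BJ293360 (0.992). CA612157 came closest to BE604829 (0.968), CA650490 of its own cluster to the at probe set of CD373926 (0.943), and CA644585 to CA652678 (0.954). To the x_at probe set of CD373926 a probe set with no name here came closest (0.918), and none of its cluster was among its 3 closest. Next to CA652678 came BQ169398, placed by the study in starch cleavage (0.950). For CA695230 the closest was a probe set with no name here (0.981), followed by CA640534, placed by the study among ABC transporters (0.973).

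Other hormone genes were taken by name or by the study's classes, in all 20 probe sets: 10 of ABA response and metabolism, 6 of ethylene, 2 of jasmonate, 1 of gibberellin and 1 of auxin. They hold 6 further accessions of the study's hormone classes and BJ291883, which it placed with the cytochromes P450; the rest were found by gene name. All 20 appear in the study's list of changed probe sets, so their direction is not independent evidence and their counts are a description. With ABA in embryo 15 were higher, 3 lower and 2 did not pass (2.66% and 3.08% of all probe sets were higher and lower), with a median log2 difference of 1.36 against −0.05 over all probe sets. With ABA in endosperm 12 were higher, 5 lower and 3 did not pass (3.26% and 3.6% of all; median 0.85 against −0.10). With H2O2 in embryo 1 was lower and 19 did not pass (0.188% and 0.343% of all; median −0.02 against 0.12), and in endosperm 2 were higher, 2 lower and 16 did not pass (3.08% and 2.38% of all; median −0.004 against −0.004). Without H2O2_embryo replicate 1, 2 were lower with H2O2 in embryo (0.815% of all; median −0.247 against −0.009), and in endosperm 5 were higher and 2 lower (7.35% and 6.47% of all).

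The ABA genes accounted for 10 of the 15 higher in embryo and 8 of the 12 in endosperm. They included U80037, the ABA-induced plasma membrane protein PM 19 (4.86 in embryo and 1.51 in endosperm), AB115914, the ABA-inducible protein Wrab18 (3.78 and 1.92), and CK208784, TaABI1, a protein phosphatase of the type that restrains ABA signalling (1.97 and 2.29). Each of these 6 values had an adjusted p of at most 0.00104. BJ291883 gave 1.39 in embryo (adjusted p = 0.0334) and 1.61 in endosperm (adjusted p = 0.0113).

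Of the genes grouped here under jasmonate, lipoxygenase 1 (Lox1, BT008992) was found by its gene name and not through the study's classes. It read 1314, 1391 and 1361 in CK_embryo and 2838, 2106 and 2434 in ABA_embryo. It was higher with ABA in embryo (0.85, adjusted p = 6.18e-04) and in endosperm (1.08, adjusted p = 5.18e-05). A second accession of the 12-oxo-PDA reductase class, CA669976, read 1817, 1811 and 1922 in CK_endosperm, 3277, 4071 and 4042 under ABA and 4107, 3552 and 3886 under H2O2. It was higher in endosperm with ABA (1.03, adjusted p = 3.84e-06) and H2O2 (1.06, adjusted p = 9.97e-06). The study listed CA669976 for these same endosperm responses, so the p-values are a description and no independent evidence. In embryo it gave 0.15 and 0.08 (adjusted p = 0.743 and 0.781). For CA669976 the effects differed between the tissues by −0.88 for ABA (adjusted p = 0.00293) and −0.97 for H2O2 (adjusted p = 0.00131), tests that 2.64% and 3.63% of all probe sets passed. Both differences contain the endosperm effects for which the study listed it. The gibberellin-induced protein BJ207394 was lower with ABA in embryo (−1.43, adjusted p = 2.25e-08) and endosperm (−1.27, adjusted p = 2.42e-07) and with H2O2 in endosperm (−0.68, adjusted p = 0.00104).

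The ethylene genes were mixed. The 2 probe sets of CTR1, in Arabidopsis a kinase that holds ethylene signalling off when the hormone is absent, were higher with ABA, CA652064 by 2.24 in embryo and 2.97 in endosperm (adjusted p = 0.0108 and 9.36e-04) and BJ321260 by 2.41 and 1.89 (adjusted p = 1.86e-09 and 1.57e-07). CD928643, of ethylene signal transduction, was lower with ABA in both tissues (−1.38 and −1.12, adjusted p = 0.00123 and 0.00868). The ethylene-responsive CD866886 read 3119, 3000 and 3040 in CK_embryo and 5699, 5687 and 6126 in ABA_embryo, but 1111, 1343 and 1115 in CK_endosperm and 443.1, 507.9 and 423.9 in ABA_endosperm. It was thus higher with ABA in embryo (0.93, adjusted p = 0.00595) and lower in endosperm (−1.38, adjusted p = 1.45e-04), with a difference between the tissues of 2.31 (adjusted p = 4.3e-05). With H2O2 it was lower in endosperm (−2.23, adjusted p = 1.34e-06). The study listed CD866886 for its endosperm responses and CD928643 for its embryo responses, so the p-values that use them are no independent evidence.

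**Figure D4:**
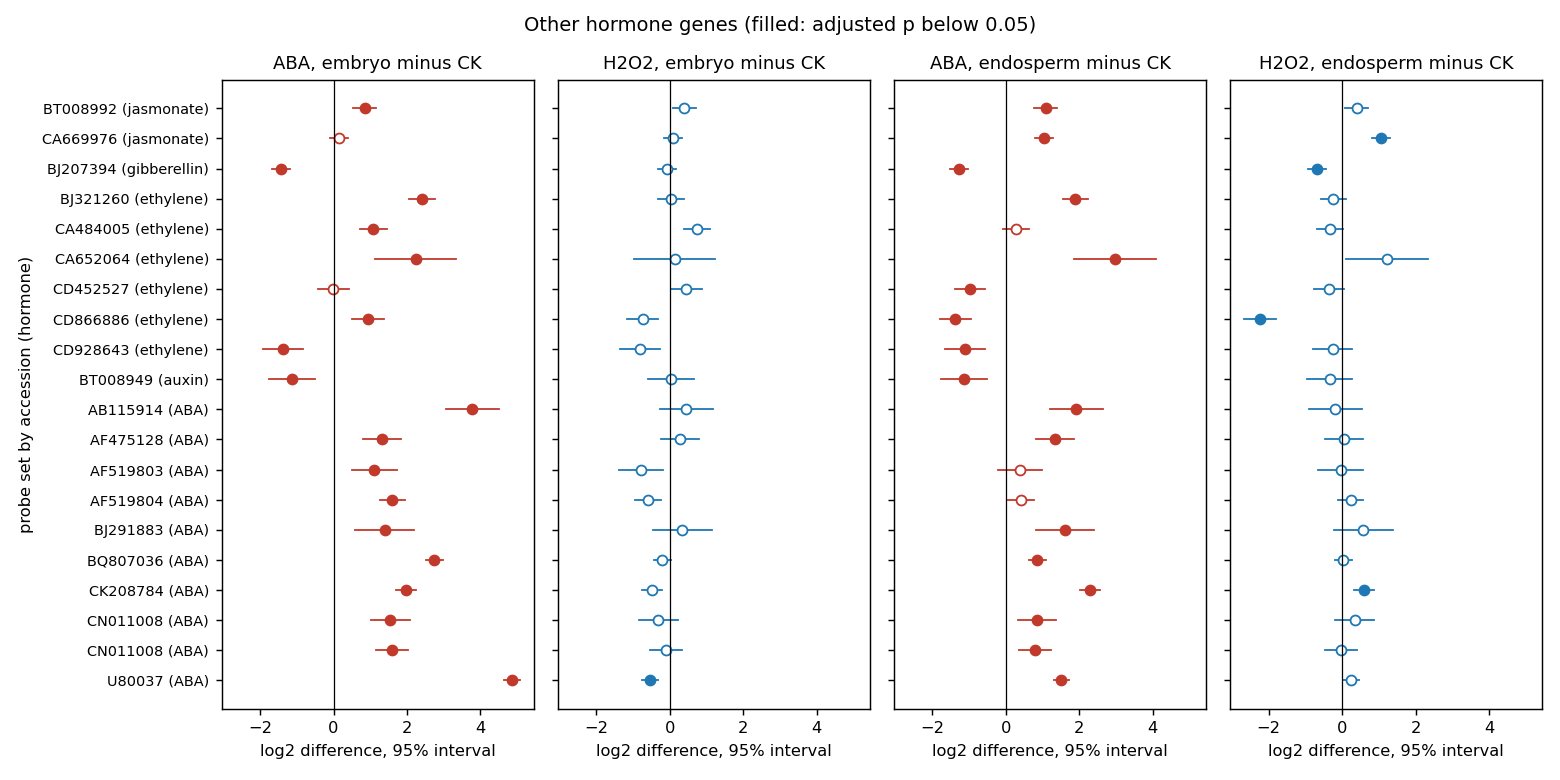
Log2 differences (points) with 95% intervals (lines) of 20 other hormone probe sets, by accession and hormone, for ABA and H2O2 against CK in each tissue; filled points have an adjusted p below 0.05 in limma. With ABA in embryo 15 lie above 0 and pass, whereas with H2O2 in embryo only 1 passes, below 0.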

How the data were processed

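The deposited values are intensities: the authors made 1 linear signal per probe set and array with MAS5 and scaled each array to a common target. The table holds 61290 probe sets and 18 columns, 1 per array, of which all were assigned to groups by their labels, and 0 columns were left unused. The 111 Affymetrix controls were dropped, signals under 10 were set to 10, log2 was taken, and 3187 probe sets that did not reach 20 on at least 3 arrays were filtered out. For the remaining 57992, limma 3.58.1 (R 4.3.3) gave the tests (lmFit on 6 group means, eBayes with trend) with Benjamini-Hochberg adjustment and a threshold of 0.05, two-sided. The fit was tested on simulated data. Differences between the tissues, first planned as tests, are given as values for the 6 probe sets, since they share arrays with the contrasts that chose them. Figures and counts used Python 3.11.15 with pandas 2.3.3 and matplotlib 3.10.9. The number of arrays, 3 per group, limits the precision, and detection calls were not used here.

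The accessions and gene lists were chosen with earlier results of these data known. Named were the 6 probe sets, those of the same sequence cluster or stem, the hormone list, and the 3 probe sets most correlated with each. Probe sets were matched to accessions and named through the study's supplementary list (identity columns only; its signals, fold changes and p-values were not used), the platform annotation and RefSeq. Sequences were not used here. Alternatives were other floors, filters, scalings, no trend, 6-array fits, the SAM test of the methods (coded anew, over 20 label orders), a threshold of 0.01, a block for the replicate number, and leaving out each array.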

Additional observations from a re-analysis of the deposited data

Results flagged for a closer look

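Values below are differences of a treatment effect between the tissues, embryo minus endosperm, on the log2 scale. Among the 6 probe sets described above, the x_at probe set of CD373926 had ABA arrays apart from CK in opposite directions in embryo and endosperm. Every ABA_embryo array lay below every CK_embryo array and every ABA_endosperm array above every CK_endosperm array, with a difference of −3.61. This difference was not tested, since its endosperm effect chose the accession. The embryo effect did not pass in limma (−0.48, adjusted p = 0.876), and for the at probe set the embryo arrays overlapped. All ABA_embryo arrays lay below all CK_embryo arrays for 16.9% of all probe sets.

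Among 31 probe sets of the other lists, the interaction term of limma passed for the following, most of which the study had chosen on these arrays; over all probe sets 2.64% passed for ABA and 3.63% for H2O2. For ABA it passed in the cluster of CD373926, with −1.85 for the at and −1.48 for the x_at probe set of CA650490, and for CA669976 (−0.88), CD866886 (2.31), the AB005555 probe set of gibberellin 20-oxidase (1.04), and the ABA genes U80037 (3.35), BQ807036 (1.90), AB115914 (1.86) and AF519804 (1.20). For H2O2 it passed for the s_at and x_at probe sets of CA650490 (−1.56 and −1.08), CA669976 (−0.97), CD866886 (1.5), CA484005 (1.08), BJ207394 (0.60), CK208784 (−1.07) and U80037 (−0.77). Without H2O2_embryo replicate 1, each of these passed as well, among 8.94% (ABA) and 8.72% (H2O2) of all probe sets. Groups of 3 arrays are too small for a test of outlying samples.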

How the results depend on the processing

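Of 195 values of the 15 tested results of the 6 probe sets under 13 alternatives, 178 kept their direction and side of the threshold, 17 no longer passed, 0 newly passed and 0 changed sign. Many of the 178 belong to results that did not pass in the main analysis either, so the count does not measure how stable the calls were. With SAM the only call kept was that of CA652678 with ABA in endosperm. For CD373926, ABA minus H2O2 in embryo did not pass for the x_at probe set with quantile normalization (−1.62, adjusted p = 0.0562), without the trend (−1.67, adjusted p = 0.084) or at a threshold of 0.01. With only the 6 arrays of the comparison (adjusted p = 0.189 and 0.175) and with SAM at a q of 0.05 or 0.01 (q = 0.232 and 0.22), neither probe set passed (−1.60 and −1.67). SAM at either q also did not call CA695230 in embryo for ABA minus CK (0.88, q = 0.109) or ABA minus H2O2 (0.70, q = 0.331), nor CA652678 in endosperm for H2O2 minus CK (−1.25, q = 0.293) or ABA minus H2O2 (−2.20, q = 0.0953). With quantile normalization 3 of the other hormone genes were lower with ABA in endosperm, and without H2O2_embryo replicate 1, 5 were higher with H2O2 in endosperm (7.35% of all probe sets, against 3.08% with it) and 2 lower with H2O2 in embryo (0.815%, against 0.343%).

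Leaving out 1 array at a time gave −0.39 to 0.012 for ABA minus CK, −0.31 to 0.63 for H2O2 minus CK and −0.86 to 0.069 for ABA minus H2O2 of BE604829 in endosperm. For CD373926 it gave 0.63 to 1.43 for H2O2 minus CK in embryo (at; past the threshold without H2O2_embryo replicate 3, adjusted p = 0.043) and −2.05 to −1.07 for ABA minus H2O2 in embryo (x_at). The cause of these changes was not tested.

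Replicate numbers did not pair the arrays: deviations of same-numbered arrays correlated at −0.037 to 0.074, 0 of the 3 pairs of any comparison being over 0.1. With the replicate number as a block, no call of a tested result of the 6 probe sets changed, for instance 0.88 (adjusted p = 6.83e-05) for CA695230 with ABA in embryo. Without detection calls or counts, signals near the floor of 10 limit the BE604829 and CD373926 x_at values most.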
